A study of Homo sapiens with 18 samples.

Results

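The lysosome is described here through 52 genes of its enzymes, membrane proteins and proton pump, which were picked by name from the 36576 genes of the deposited expression table. They comprise 9 proteases, 9 sugar hydrolases, 9 membrane proteins and the transcription factors TFEB, TFE3 and MITF. Another 8 are grouped under lipid handling, with activators and with GRN. The other 14 are genes of the proton pump (V-ATPase): 4 of its membrane sector V0, 8 of its catalytic sector V1 and 2 accessory genes. The cells are labelled A549, a human lung adenocarcinoma line, and were given one of 2 nanomaterials or none: 10 mg/L BPQD for 24 h (an abbreviation used in this field for black phosphorus quantum dots), 100 mg/L TiO2 for 24 h, or no material. Each group has 3 libraries of total (input) RNA and 3 of RNA precipitated with an antibody to N6-methyladenosine (m6A), a methyl mark on RNA. The labels do not say whether the 3 libraries of a group come from separate cultures, so p-values measure the spread between these libraries, which may be technical. Doses of the materials differ, so BPQD against TiO2 compares these 2 exposures and not equal amounts.

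Lysosomes are acidic organelles in which proteases, glycosidases and lipases break down material taken up from outside the cell or delivered by autophagy. The V-ATPase, a rotary pump whose V1 sector hydrolyses ATP and whose V0 sector carries protons through the membrane, sets the acidity that most of these enzymes need. TFEB, TFE3 and MITF are related helix-loop-helix transcription factors that bind short E-box motifs in promoters of lysosomal genes, and their activity is set in large part by phosphorylation and entry into the nucleus. Particles that cells take up by endocytosis commonly end in lysosomes.

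Levels are given as FPKM (fragments scaled to transcript length and library size), the unit of the deposited table, in the order replicate 1, 2 and 3. Changes are log2 fold changes on the log2(FPKM + 1) scale with their standard error, which understates the change of low genes, and a gene is called where limma's two-sided adjusted p is under 0.05. Depth in reads is not given, but low values step in whole reads, and the commonest ratio of low values between libraries puts depth, relative to untreated replicate 1, at 0.794 to 1.03 in BPQD libraries, 1.04 to 1.13 in TiO2 libraries and 0.910 and 0.924 in the other untreated libraries. The part of that difference in the results was not tested. In cells of a labelled epithelial line the keratins KRT7, KRT8 and KRT18 were abundant (KRT18 averaged 407 FPKM with BPQD, 479 with TiO2 and 581 in untreated cells), whereas CDH1 reached at most 0.409 FPKM, and of genes known to be high in A549 AKR1B10 reached at most 0.998, AKR1C1 1.14 and ALDH1A1 0.116 FPKM in any library. The data therefore go against part of what is known of the labelled line. The 5 epithelial markers, CDH1 included, summed to 852 to 871 FPKM in BPQD libraries, 952 to 1046 in TiO2 libraries and 1151 to 1239 in untreated libraries. Of the 4 that were tested 3 were called lower with BPQD and 2 with TiO2, and the part of this in the results was not tested. The 11 macrophage and leukocyte markers summed to 0.487 to 1.34 FPKM in BPQD libraries, 1.04 to 1.92 in TiO2 libraries and 0.962 to 2.63 in untreated libraries, and none reached the level needed for testing.

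Of the 52 genes 50 had a mean of at least 1 FPKM over the 9 input libraries and were tested. The dendritic-cell lysosomal glycoprotein LAMP3 (mean 0.0901 FPKM) and the osteoclast protease CTSK (mean 0.541 FPKM) were not. The aminopeptidase CTSH, which averaged 1.27 FPKM with BPQD, 0.967 with TiO2 and 0.937 in untreated cells, reached the limit only through its BPQD libraries. It was thus selected through the group where it is high. Its higher calls with BPQD are included in the counts below but are not support for a rise. In BPQD-exposed cells 5 members were called higher and 21 lower than in untreated cells, and 24 were not called, with a median log2 fold change of -0.11. Over all 12224 genes tested 44.0% were called, 20.6% higher and 23.4% lower, with a median of -0.01. With values as TPM (each library rescaled to the same sum) the BPQD calls were 7 higher and 15 lower. In TiO2-exposed cells 23 members were called higher and 5 lower, and 22 were not called, with a median of 0.18. Over all genes 37.7% were called, 17.3% higher and 20.5% lower, with a median of -0.02.

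The 3 BPQD libraries lay above all 3 untreated libraries in 7 of the 50 tested members and below them in 21, against 26.4% and 29.2% of all genes tested. The 3 TiO2 libraries lay above all untreated libraries in 31 of the 50 tested members and below them in 5, against 23.4% and 28.3% of all genes tested. Summed over the 52 members, input levels were 1447, 1407 and 1441 FPKM in BPQD libraries and 1873, 1911 and 1911 FPKM in TiO2 libraries, against 1603, 1588 and 1624 FPKM in untreated libraries. The sums of the 3 groups did not overlap, BPQD lying lowest and TiO2 highest. Sums over all genes did not overlap either, at 212891 to 213976 FPKM in BPQD, 219458 to 219676 in TiO2 and 221580 to 222818 in untreated libraries. There too BPQD lay lowest, but untreated libraries lay highest. The part of this in the member sums was not tested. In such bulk RNA fewer expressing cells and less RNA per cell cannot be told apart.

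**Figure D1:**
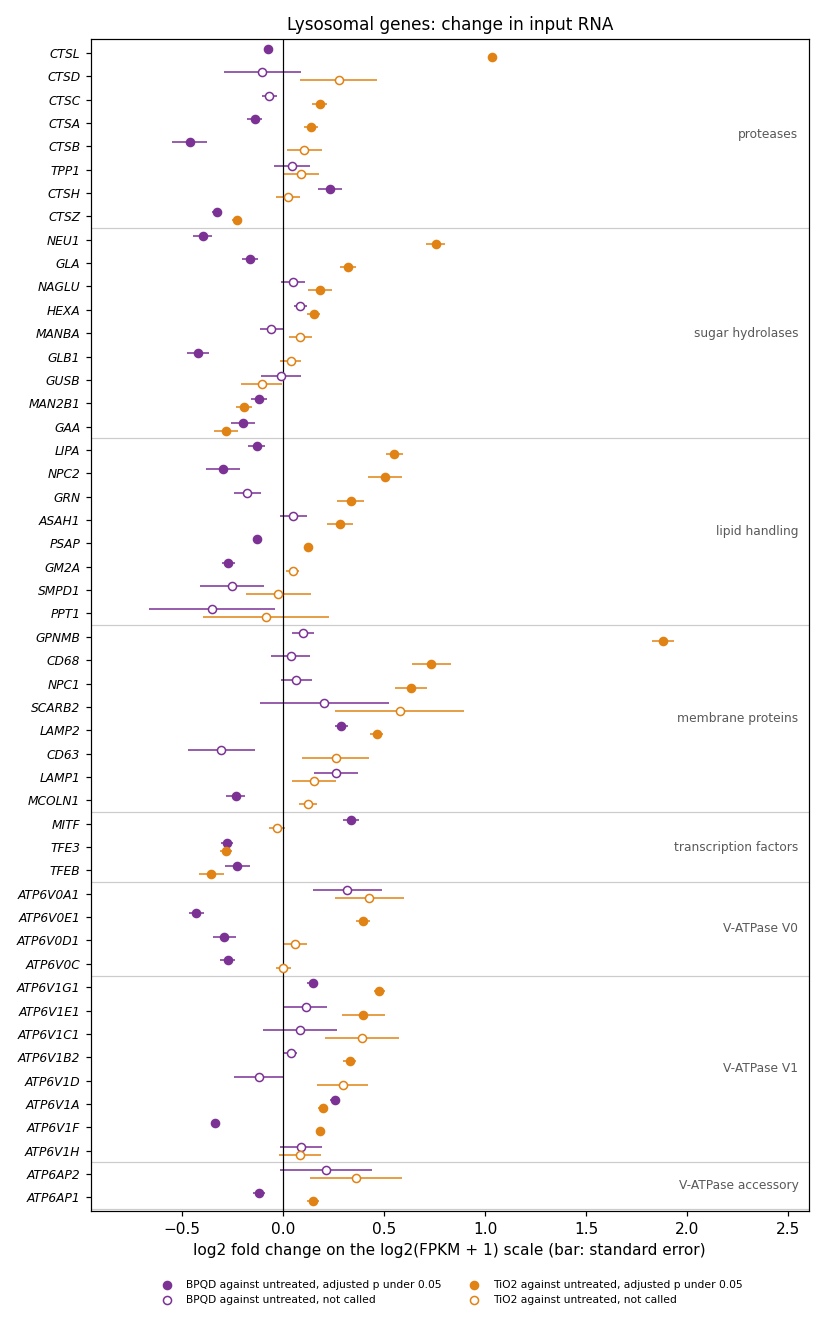
Log2 fold change (horizontal axis, log2(FPKM + 1) scale, bars: standard error) of the 50 tested members with BPQD (purple) and TiO2 (orange) against untreated cells, grouped by role and ordered by the TiO2 change; filled points have an adjusted p under 0.05. With TiO2 23 filled points lie right of 0 and 5 left of it, GPNMB farthest at 1.88, and with BPQD 5 lie right and 21 left. Both comparisons use the same 3 untreated libraries.

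GPNMB, a transmembrane glycoprotein of lysosomes and melanosomes, had the largest change of any member. It was measured at 7.61, 7.41 and 7.86 FPKM in TiO2 libraries, against 1.51, 1.23 and 1.31 FPKM in untreated libraries. Every TiO2 library lay several-fold above every untreated one, and the mean was 5.66-fold higher (log2 fold change 1.88 ± 0.06, adjusted p = 1.14e-06). With BPQD it was at 1.46, 1.64 and 1.44 FPKM, which overlaps the untreated libraries (log2 fold change 0.10 ± 0.06, adjusted p = 0.189). The gene lies on the plus strand of chromosome 7 (23235967 to 23275108, GRCh38). Melanocyte markers were low beside it, 4 of them summing to 0.569 to 0.640 FPKM with BPQD, 0.544 to 0.610 with TiO2 and 0.596 to 0.754 in untreated cells.

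The 250 bases before the GPNMB start site (chr7:23246525-23246774, plus strand, RefSeq GRCh38.p14) are shown because GPNMB is the member that changed most. Capitals mark TCACATGA, the type of E-box that MITF family factors bind, which begins 63 bases before the start site. That start site lies inside the interval given above for the gene, and not at its first base.
GPNMB: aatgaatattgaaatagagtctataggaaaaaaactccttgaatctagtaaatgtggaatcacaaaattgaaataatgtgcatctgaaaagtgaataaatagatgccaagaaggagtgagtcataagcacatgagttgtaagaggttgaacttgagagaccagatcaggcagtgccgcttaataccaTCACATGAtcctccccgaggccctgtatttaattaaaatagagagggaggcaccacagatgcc
This motif (TCACATGA, or TCATGTGA on the other strand) was found in 1.0% of the 35116 promoters in the table (250 bases before to 50 after a start), and at 338 of 27305 gene symbols (1.24%). The related palindrome TCACGTGA, the core of the element known as CLEAR that TFEB binds, does not overlap it and was found in 0.980% of promoters and at 321 symbols (1.18%).

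Promoters were matched for 38 of the 52 members. TCACGTGA was present at 6 of the 38 (15.8%), namely the pump genes ATP6V0D1 and ATP6V1G1, the protease CTSA, the glucosidase GAA, the membrane protein LAMP1 and the calcium channel MCOLN1. TCACATGA was present at 6 others (15.8%), namely ATP6V0C, CD63, GPNMB, GRN, PPT1 and TPP1. The windows below carry the motif in capitals with 11 bases on each side, 5′ to 3′ on the strand of the gene, and are shown for members that were called with at least one material.
ATP6V1G1: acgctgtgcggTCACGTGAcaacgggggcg
ATP6V0D1: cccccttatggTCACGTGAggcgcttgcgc
CTSA: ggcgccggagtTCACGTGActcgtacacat
MCOLN1: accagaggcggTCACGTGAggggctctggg
GAA: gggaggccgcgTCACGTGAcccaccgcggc
ATP6V0C: cggggcccaggTCATGTGAcgcggccgcgg
GRN: ctgtcccgacgTCACATGAttctccaatca
They lie at chr9:114587699-114587728 (plus strand), chr16:67481199-67481228 (minus), chr20:45891298-45891327 (plus), chr19:7522571-7522600 (plus), chr17:80101493-80101522 (plus), chr16:2513912-2513941 (plus) and chr17:44345068-44345097 (plus). GAA, MCOLN1 and GRN each hold a second copy within the same promoter. The genes behind these windows did not move alike: ATP6V1G1 was called higher with both materials, GAA lower with both, and ATP6V0D1, ATP6V0C and MCOLN1 lower with BPQD and not called with TiO2. Of the 12 members with either motif 1 was called higher and 5 lower with BPQD (median log2 fold change -0.19), and 4 higher and 1 lower with TiO2 (median 0.13). Of the 26 tested members with a promoter and neither motif 2 were called higher and 13 lower with BPQD (median -0.12), and 11 higher and 4 lower with TiO2 (median 0.23). Over all genes tested 20.6% were called higher and 23.4% lower with BPQD, and 17.3% and 20.5% with TiO2. A part of the motifs in these changes was not tested, and the counts are not read as a result about them.

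Among 8 tested proteases 3 rose and 1 fell with TiO2, and with BPQD 4 fell and 1, CTSH, was called higher. Over all genes tested 17.3% were called higher and 20.5% lower with TiO2, and 20.6% and 23.4% with BPQD. The counts by role, here and below, stand beside those shares and are not read as a result about a role. CTSL, the endopeptidase cathepsin L, had the largest change of the proteases. It stood at 164, 167 and 167 FPKM in TiO2 libraries, against 80.3, 80.1 and 80.7 FPKM in untreated libraries. The TiO2 mean was 2.06-fold the untreated mean with no overlap (log2 fold change 1.04 ± 0.02, adjusted p = 8.91e-08). With BPQD the level was 75.3, 76.4 and 76.99 FPKM, also without overlap but on the lower side by a small step (log2 fold change -0.07 ± 0.02, adjusted p = 0.00808), a call that TPM values did not give (adjusted p = 0.371). CTSB, cathepsin B, had 35.8, 29.1 and 34.3 FPKM in BPQD libraries, against 46.3, 46.5 and 44.5 FPKM in untreated libraries. All 3 BPQD libraries lay below the untreated ones, and the fall was the largest of any called member with BPQD on the log2(FPKM + 1) scale (log2 fold change -0.46 ± 0.09, adjusted p = 0.00361). By the ratio of means, which is not affected by that scale, CTSB was with BPQD at 0.722 and NEU1 at 0.694 of the untreated mean. With TiO2 CTSB was at 44.8, 49.7 and 53.7 FPKM, overlapping the untreated range (log2 fold change 0.11 ± 0.09, adjusted p = 0.378).

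CTSZ, the carboxypeptidase cathepsin Z, fell with both materials. Its levels were 101, 100.4 and 103 FPKM with BPQD and 111, 105 and 110.3 FPKM with TiO2, against 128, 127 and 128 FPKM in untreated libraries. No exposed library reached the untreated range, with a log2 change of -0.33 ± 0.02 (adjusted p = 3.16e-05) for BPQD and a log2 change of -0.23 ± 0.02 (adjusted p = 0.000209) for TiO2. CTSA, the carboxypeptidase that protects beta-galactosidase and neuraminidase in a complex, fell with BPQD (log2 fold change -0.14 ± 0.04, adjusted p = 0.0148) and rose with TiO2 (log2 fold change 0.14 ± 0.04, adjusted p = 0.0188). The first call was lost with TPM values (adjusted p = 0.0924), and the second under quantile normalization, without TiO2 replicate 2 and without untreated replicate 2 (highest adjusted p = 0.0917). CTSC, which activates granule serine proteases, rose with TiO2 (log2 fold change 0.18 ± 0.04, adjusted p = 0.00607). CTSH was at 1.32, 1.24 and 1.27 FPKM with BPQD, against 0.951, 1.05 and 0.811 FPKM in untreated libraries, the groups being apart at a low level. It was tested only because of these BPQD libraries, so its call (log2 fold change 0.23 ± 0.06, adjusted p = 0.0151) is not support for a rise. Neither the aspartic protease CTSD nor the tripeptidyl peptidase TPP1 was called with either material, and CTSD had a wide spread, at 68.1, 89.6 and 104 FPKM with TiO2 and 80.5, 80.3 and 54.8 FPKM in untreated libraries.

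Of the 9 sugar hydrolases 5 fell and none rose with BPQD, while 4 rose and 2 fell with TiO2. NEU1, the lysosomal sialidase, moved in opposite directions. It was at 2.48, 2.77 and 2.44 FPKM in BPQD libraries and 7.24, 6.61 and 6.90 FPKM in TiO2 libraries, against 3.74, 3.60 and 3.72 FPKM in untreated libraries. The 3 groups were fully apart, with a log2 change of -0.40 ± 0.05 (adjusted p = 0.000402) for BPQD and a log2 change of 0.76 ± 0.05 (adjusted p = 3.30e-05) for TiO2. GLB1, the beta-galactosidase that is bound in the same complex as NEU1 and CTSA, had 10.1, 10.4 and 10.3 FPKM in BPQD libraries, against 14.4, 14.2 and 13.6 FPKM in untreated libraries. The BPQD libraries were all lower (log2 fold change -0.42 ± 0.05, adjusted p = 0.000555), whereas the TiO2 libraries, at 14.5, 13.4 and 15.7 FPKM, overlapped the untreated ones (log2 fold change 0.04 ± 0.05, adjusted p = 0.612).

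The other sugar hydrolases changed less. GLA, which removes alpha-galactose from glycolipids, fell with BPQD (log2 fold change -0.16 ± 0.04) and rose with TiO2 (0.32 ± 0.04). HEXA, the alpha subunit of hexosaminidase (0.15 ± 0.03, adjusted p = 0.00809), and NAGLU, an enzyme of heparan sulphate breakdown (0.18 ± 0.06, adjusted p = 0.0479), rose with TiO2. The NAGLU call was lost in 9 of 17 alternative analyses, among them each one that left out an untreated or a TiO2 library (lowest to highest log2 fold change 0.16 to 0.22, highest adjusted p = 0.132). GAA, which degrades glycogen, and MAN2B1, an alpha-mannosidase, fell with both materials, by 0.20 and 0.12 with BPQD and by 0.28 and 0.20 with TiO2 on the log2 scale. Their BPQD calls were also fragile, being lost in 6 and 12 of 17 alternatives. Among them were, for GAA, those without BPQD replicate 1 or 2 or untreated replicate 1 or 3 (highest adjusted p = 0.0851), and for MAN2B1 those without any one BPQD or untreated library or TiO2 replicate 2 (highest adjusted p = 0.190). GUSB and MANBA, a beta-glucuronidase and a beta-mannosidase, were not called with either material.

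**Figure D2:**
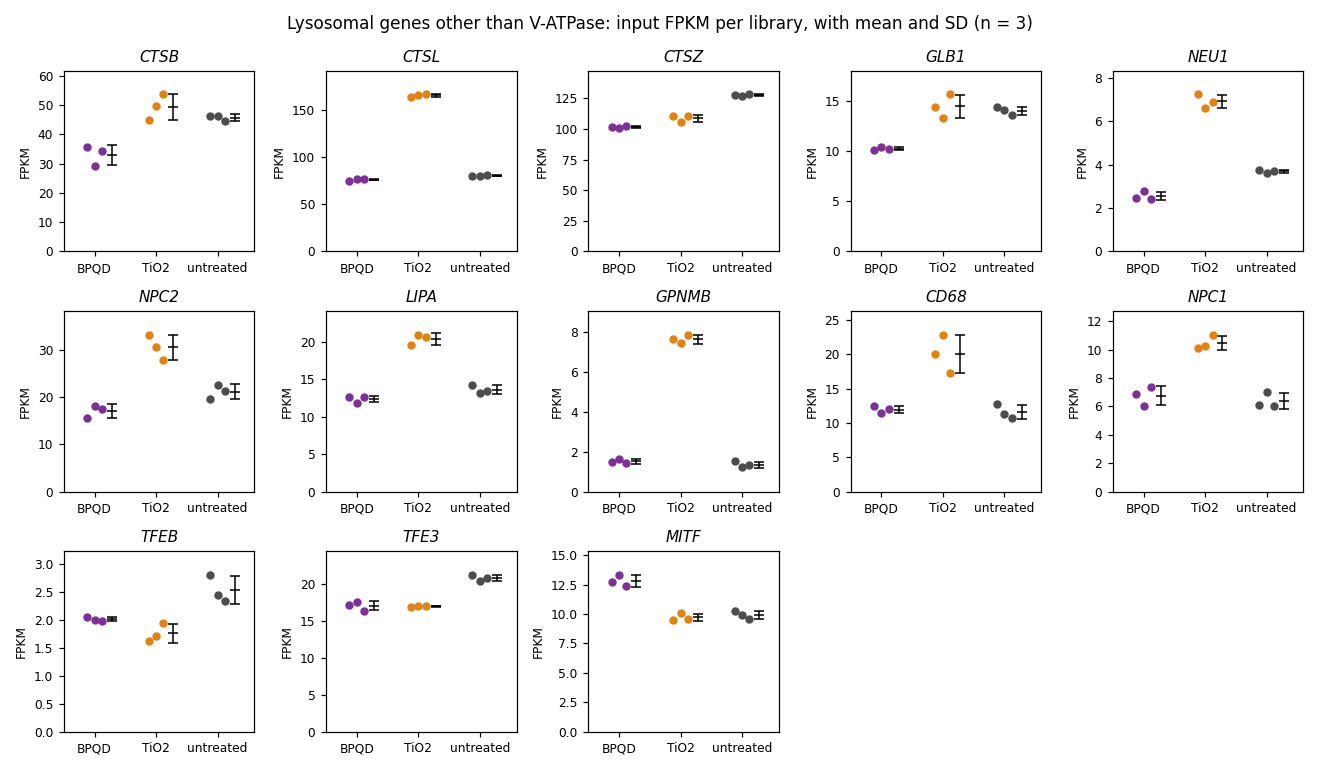
Input level in FPKM (vertical axes, from 0) of 13 members outside the V-ATPase, namely TFEB, TFE3 and those among the 8 called members with the largest change in each comparison, with 3 points per group (BPQD, TiO2, untreated) and the mean with its SD (n = 3) beside them. In the CTSL, NEU1, CD68, NPC1, LIPA, NPC2 and GPNMB panels all TiO2 points lie above all others, and in the TFE3 panel all exposed points lie below the untreated ones.

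Of 8 genes grouped under lipid handling 4 fell and none rose with BPQD, and 5 rose and none fell with TiO2. GRN is in this group and among those that rose with TiO2. LIPA, the acid lipase that frees cholesterol from its esters, had 19.5, 20.96 and 20.6 FPKM in TiO2 libraries, against 14.3, 13.1 and 13.4 FPKM in untreated libraries. The mean was 1.5-fold higher, without overlap (log2 fold change 0.55 ± 0.04, adjusted p = 7.61e-05). LIPA spans IFIT1, IFIT2 and IFIT3 on the other strand, with a mean of up to 7.33 FPKM, so reads could be shared. With BPQD it had 12.6, 11.9 and 12.6 FPKM, again without overlap and lower (log2 fold change -0.13 ± 0.04, adjusted p = 0.0401), but this call was lost in 12 of 17 alternatives, including those that left out any one BPQD library or untreated replicate 1 or 3 (highest adjusted p = 0.175). NPC2, the soluble protein that hands cholesterol to NPC1, was at 15.5, 18.2 and 17.5 FPKM with BPQD and 33.2, 30.5 and 27.8 FPKM with TiO2, against 19.6, 22.6 and 21.3 FPKM in untreated libraries. The 3 groups did not overlap, with a log2 change of -0.30 ± 0.08 (adjusted p = 0.0226) for BPQD and a log2 change of 0.51 ± 0.08 (adjusted p = 0.00258) for TiO2. The BPQD call was lost without BPQD replicate 1, without untreated replicate 2 or 3 and with no filter on low genes (highest adjusted p = 0.0734). NPC2 overlaps ISCA2 and MIR4709, with a mean of up to 10.9 FPKM, so here too reads could be shared.

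PSAP, the precursor of the saposins that help hydrolases reach sphingolipids, was the most abundant member. It had 369, 358 and 359.6 FPKM in BPQD libraries and 437, 429 and 428 FPKM in TiO2 libraries, against 390.0, 395 and 401 FPKM in untreated libraries. The steps were small but larger than the spread, with a log2 change of -0.13 ± 0.02 (adjusted p = 0.000999) for BPQD and a log2 change of 0.13 ± 0.02 (adjusted p = 0.00140) for TiO2, and the BPQD call was lost under quantile normalization (adjusted p = 0.360). GRN, whose product progranulin is cut into granulins in lysosomes, rose with TiO2 (log2 fold change 0.34 ± 0.07, adjusted p = 0.00648), as did ASAH1, the acid ceramidase (log2 fold change 0.28 ± 0.07, adjusted p = 0.0116). GM2A, the activator of GM2 ganglioside breakdown, fell with BPQD (log2 fold change -0.27 ± 0.03, adjusted p = 0.000417). The sphingomyelinase SMPD1 and the thioesterase PPT1 were not called with either material. PPT1 varied widely within groups, at 19.3, 24.9 and 12.4 FPKM with BPQD, 23.1, 14.7 and 31.4 FPKM with TiO2 and 21.2, 21.8 and 27.9 FPKM in untreated libraries.

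Of the 8 tested membrane proteins, 4 rose and none fell with TiO2, among them GPNMB, and 1 rose and 1 fell with BPQD. CD68, a heavily glycosylated protein of late endosomes and lysosomes that is best known from macrophages, had 20.1, 22.9 and 17.3 FPKM in TiO2 libraries, against 12.8, 11.4 and 10.8 FPKM in untreated libraries. All TiO2 libraries were higher, by 1.73-fold in the mean (log2 fold change 0.73 ± 0.10, adjusted p = 0.000946). Genes listed as AC016876 overlap CD68 on both strands, with a mean of up to 5.33 FPKM, so reads could be shared. The 11 macrophage and leukocyte markers summed to 1.04 to 1.92 FPKM in TiO2 libraries and 0.962 to 2.63 FPKM in untreated libraries. With BPQD CD68 was at 12.4, 11.5 and 11.98 FPKM, inside the untreated range (log2 fold change 0.04 ± 0.10, adjusted p = 0.780). NPC1, the membrane transporter that exports cholesterol from lysosomes, had 10.1, 10.3 and 11.1 FPKM in TiO2 libraries, against 6.13, 7.05 and 6.02 FPKM in untreated libraries. The TiO2 libraries again stood apart (log2 fold change 0.63 ± 0.08, adjusted p = 0.000645), and the BPQD libraries, at 6.88, 6.02 and 7.35 FPKM, overlapped the untreated ones (log2 fold change 0.07 ± 0.08, adjusted p = 0.531). NPC1 overlaps RMC1 on the other strand (mean 4.14 FPKM), so reads could be shared.

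LAMP2, a major protein of the lysosomal membrane that also acts in chaperone-mediated autophagy, rose with both materials, with a log2 change of 0.29 ± 0.03 (adjusted p = 0.000310) for BPQD and a log2 change of 0.46 ± 0.03 (adjusted p = 5.20e-05) for TiO2. MCOLN1, a calcium channel that responds to lysosomal stress, fell with BPQD (log2 fold change -0.23 ± 0.05, adjusted p = 0.00421). LAMP1, the tetraspanin CD63 and SCARB2, the receptor that carries glucocerebrosidase to lysosomes, were not called with either material, and SCARB2 had the largest standard error of any member (0.32). LAMP3, below the limit for testing, was at 0.0747, 0.0309 and 0.102 FPKM with BPQD and 0.0651, 0.0593 and 0.0425 FPKM with TiO2, against 0.123, 0.172 and 0.141 FPKM in untreated libraries. When all genes were fitted its TiO2 change was called lower (log2 fold change -0.12, adjusted p = 0.0365).

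The transcripts of TFEB and TFE3 fell with both materials, and that of MITF rose with BPQD. TFEB was at 2.05, 2.00 and 1.98 FPKM in BPQD libraries and 1.62, 1.71 and 1.94 FPKM in TiO2 libraries, against 2.81, 2.44 and 2.33 FPKM in untreated libraries. Every exposed library was below every untreated one, with a log2 change of -0.23 ± 0.06 (adjusted p = 0.0213) for BPQD and a log2 change of -0.35 ± 0.06 (adjusted p = 0.00354) for TiO2. The BPQD call was lost in 5 of 16 alternatives, among them those without BPQD replicate 2 or 3 or untreated replicate 1 (highest adjusted p = 0.0580). TFE3 had 17.1, 17.6 and 16.4 FPKM with BPQD and 16.8, 16.97 and 16.97 FPKM with TiO2, against 21.2, 20.4 and 20.8 FPKM in untreated libraries. It fell with both, without overlap, with a log2 change of -0.28 ± 0.03 (adjusted p = 0.000262) for BPQD and a log2 change of -0.28 ± 0.03 (adjusted p = 0.000315) for TiO2. MITF had 12.7, 13.3 and 12.3 FPKM with BPQD and 9.46, 10.1 and 9.61 FPKM with TiO2, against 10.2, 9.94 and 9.61 FPKM in untreated libraries. Only its BPQD libraries stood apart, on the higher side (log2 fold change 0.33 ± 0.04, adjusted p = 0.000378, against -0.03 ± 0.04 with TiO2).

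Of the 14 V-ATPase genes, all tested, 7 rose and none fell with TiO2, and 2 rose and 5 fell with BPQD. Their levels summed to 349, 339 and 346 FPKM in BPQD libraries and 466, 469 and 469 FPKM in TiO2 libraries, against 386, 388 and 388 FPKM in untreated libraries, without overlap between groups. The sums over all genes, given above, did not overlap between groups either. Of all genes tested 17.3% were called higher and 20.5% lower with TiO2, and 20.6% and 23.4% with BPQD. The counts for the pump and its sectors are not read as a result about them. In V0, ATP6V0E1, a small subunit, had the largest called change with each material. It had 59.6, 54.1 and 54.8 FPKM with BPQD and 101, 99.3 and 101 FPKM with TiO2, against 76.01, 76.6 and 75.04 FPKM in untreated libraries. The groups were fully apart, with a log2 change of -0.43 ± 0.04 (adjusted p = 7.79e-05) for BPQD and a log2 change of 0.40 ± 0.04 (adjusted p = 0.000145) for TiO2. Of the 4 V0 genes 3 fell with BPQD, the other ones being ATP6V0C, which forms the rotating ring (-0.27 ± 0.04), and ATP6V0D1, which couples the ring to V1 (-0.29 ± 0.06). Their TiO2 values were 0.00 ± 0.04 and 0.06 ± 0.06, and neither was called.

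Of the 8 V1 genes 5 rose with TiO2 and none fell. ATP6V1G1, part of the peripheral stalk, had 68.2, 69.3 and 66.8 FPKM in TiO2 libraries, against 49.4, 48.4 and 48.1 FPKM in untreated libraries. It stood apart there (log2 fold change 0.48 ± 0.03, adjusted p = 1.84e-05) and, by a smaller step, with BPQD, at 55.5, 52.4 and 53.9 FPKM (log2 fold change 0.15 ± 0.03, adjusted p = 0.00310). ATP6V1F, a subunit of the central rotor, was the most abundant pump gene. It had 85.8, 85.9 and 86.9 FPKM with BPQD and 125, 122 and 124 FPKM with TiO2, against 109.6, 109 and 109 FPKM in untreated libraries. BPQD libraries were all lower and TiO2 libraries all higher, with a log2 change of -0.33 ± 0.02 (adjusted p = 8.97e-06) for BPQD and a log2 change of 0.18 ± 0.02 (adjusted p = 0.000141) for TiO2.

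The catalytic subunit gene ATP6V1A rose with both materials (0.26 ± 0.02 with BPQD and 0.20 ± 0.02 with TiO2). ATP6V1B2, the partner subunit in the catalytic ring (0.33 ± 0.03), and ATP6V1E1, of the stalk (0.40 ± 0.11), rose with TiO2, the second call being lost without TiO2 replicate 1 or 2 (highest adjusted p = 0.0636). ATP6V1C1, ATP6V1D, ATP6V1H and the V0 gene ATP6V0A1 were not called with either material. ATP6AP1, an accessory gene of pump assembly, fell with BPQD (-0.12 ± 0.03) and rose with TiO2 (0.15 ± 0.03), the first call being lost with TPM values (adjusted p = 0.125), whereas ATP6AP2 was not called and spread from 2.67 to 5.87 FPKM within the BPQD group.

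**Figure D3:**
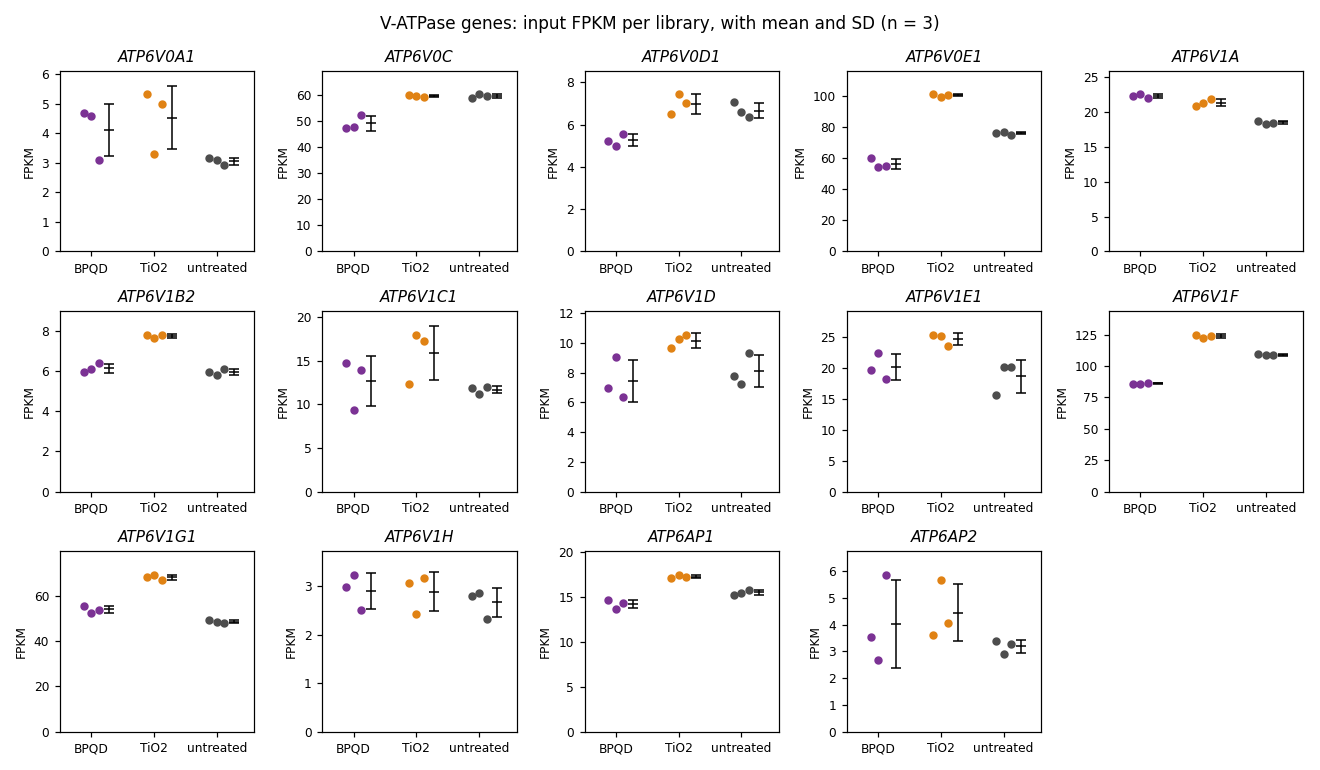
Input level in FPKM (vertical axes, from 0) of the 14 V-ATPase genes, with 3 points per group (BPQD, TiO2, untreated) and the mean with its SD (n = 3) beside them. ATP6V0E1 and ATP6V1F show TiO2 above and BPQD below the untreated libraries, while ATP6V0A1, ATP6V1C1 and ATP6AP2 show wide spreads in the exposed groups.

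The exposures were also compared with each other, which tests the difference that the comparisons with shared untreated libraries cannot. BPQD libraries were called lower than TiO2 libraries in 28 members and higher in 2, and 20 were not called, with a median log2 fold change of -0.28. Over all genes 37.6% were called, 18.6% lower and 19.0% higher, with a median of 0.00. All 3 BPQD libraries lay below all TiO2 libraries in 32 of the 50 tested members and above them in 4, against 24.9% and 26.2% of all genes tested. By role the lower calls were 5 of 8 proteases, 3 of 9 sugar hydrolases and 6 of 8 genes grouped under lipid handling, GRN included. They were also 6 of 8 membrane proteins and 8 of 14 V-ATPase genes. MITF (0.36 ± 0.04) and CTSH (0.21 ± 0.06) were the members called higher with BPQD than with TiO2. CTSH had reached the limit for testing only through its BPQD libraries, so its call is not support for a difference. That call was lost in 8 of 16 alternatives, among them each that left out a BPQD library or TiO2 replicate 2 or 3 (highest adjusted p = 0.0862). Among the lower calls those of CD63 (highest adjusted p = 0.0912), ATP6V1D (0.10) and ASAH1 (0.0784) were each lost when single BPQD or TiO2 libraries were left out, and that of CTSZ with TPM values and under quantile normalization (0.285).

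The difference between exposures was largest for GPNMB (log2 fold change -1.78 ± 0.06, adjusted p = 1.78e-06). NEU1 followed with a log2 change of -1.15 ± 0.05 (adjusted p = 4.03e-06), its BPQD mean being 0.370 of the TiO2 mean. CTSL had a log2 change of -1.11 ± 0.02 (adjusted p = 5.04e-08). ATP6V0E1 (-0.83 ± 0.04), NPC2 (-0.80 ± 0.08), CD68 (-0.70 ± 0.10), LIPA (-0.68 ± 0.04) and NPC1 (-0.57 ± 0.08) completed the 8 members with the largest differences, in each of which the groups did not overlap. TFEB (log2 fold change 0.13 ± 0.06, adjusted p = 0.150) and TFE3 (log2 fold change 0.01 ± 0.03, adjusted p = 0.904) were not called between the exposures.

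**Figure D4:**
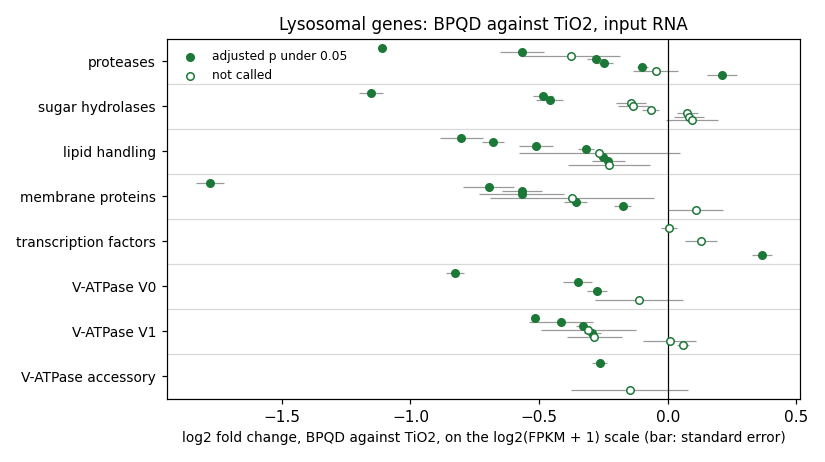
Log2 fold change of BPQD against TiO2 (horizontal axis, log2(FPKM + 1) scale, bars: standard error) for the 50 tested members by role; filled points have an adjusted p under 0.05. Of the filled points 28 lie left of 0, GPNMB farthest at -1.78, and 2 lie right of it.

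Lysosomal genes outside the 52 were counted in the same fit. Over all genes tested 20.6% rose and 23.4% fell with BPQD, and 17.3% rose and 20.5% fell with TiO2. The counts of these small lists are given beside those shares and are not read as a result about the lists. With TiO2 the median log2 fold change was 0.03 in the other hydrolases and 0.03 in the other membrane proteins, against 0.18 in the tested members. With BPQD it was -0.12 in the other hydrolases and -0.11 in the other membrane proteins, close to the -0.11 of the tested members. Of 24 other tested hydrolases 2 rose and 8 fell with BPQD, and 5 rose and 3 fell with TiO2. The largest change among those called with BPQD was a fall of the hyaluronidase HYAL2 (log2 fold change -0.45 ± 0.07). Of 23 other membrane proteins 1 rose and 9 fell with BPQD, and 4 rose and 6 fell with TiO2. The nucleoside transporter SLC29A3 (log2 fold change -0.42 ± 0.04) and GLMP (log2 fold change -0.35 ± 0.04), a partner of a lysosomal transporter, fell with BPQD, while with TiO2 the lipid transporter ABCA2 fell (log2 fold change -0.44 ± 0.03) and the sialic acid exporter SLC17A5 rose (log2 fold change 0.41 ± 0.04).

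The same shares of all genes stand beside the next 3 lists, whose counts are likewise not read as a result about them. Of 9 other tested V-ATPase subunits and assembly factors 2 rose and 2 fell with BPQD, and 1 rose and 1 fell with TiO2. The assembly chaperone VMA21 rose (log2 fold change 0.33 ± 0.04) and the V0 subunit TCIRG1 fell (log2 fold change -0.30 ± 0.02) with BPQD, and ATP6V0B rose (log2 fold change 0.17 ± 0.03) and ATP6V0E2 fell (log2 fold change -0.12 ± 0.04) with TiO2. Of 15 genes that deliver enzymes to lysosomes 2 rose and 5 fell with BPQD, led by a fall of the sorting receptor SORT1 (log2 fold change -0.38 ± 0.03) and of the adaptor subunit AP1M1 (log2 fold change -0.23 ± 0.06), and 1 rose and 3 fell with TiO2, led by falls of the adaptors GGA1 (log2 fold change -0.28 ± 0.05) and GGA2 (log2 fold change -0.22 ± 0.06). Of 13 tested Rag, Ragulator and folliculin genes, which link lysosomes to the kinase mTORC1 and to TFEB, 1 rose and 2 fell with BPQD, and 5 rose and 1 fell with TiO2. The GTPase RRAGC had the largest rise with TiO2 (log2 fold change 0.59 ± 0.05), followed by the folliculin partner FNIP1 (log2 fold change 0.37 ± 0.04), which also rose with BPQD (log2 fold change 0.22 ± 0.04), where the Ragulator subunit LAMTOR4 fell (log2 fold change -0.27 ± 0.04).

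Methylation was read from the authors' deposited tables of m6A peaks, one per material, each giving a log2 fold change of m6A enrichment against untreated cells and a p-value per peak. These are the authors' values, with no values per library used here, and counts at their p under 0.05 describe these tables only. The BPQD table listed 37 peak entries in 22 members, of which 25 were past p 0.05, 13 higher and 12 lower. Of all 14903 entries listed for BPQD, 64.8% were past it, 37.7% higher and 27.1% lower, so the share of member entries past the threshold, 67.6%, was close to that of all entries. The TiO2 table listed 46 entries in 27 members, of which 26 were past p 0.05, 14 higher and 12 lower. Of all 12891 entries there 64.1% were past it, 40.3% higher and 23.8% lower, against 56.5% of member entries. Entries of one gene can overlap, and merging them left 34 loci with BPQD and 42 with TiO2.

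By the authors' annotation 14 of the 37 BPQD entries lay in 5′ UTRs, 18 in 3′ UTRs and 5 in other exons, and 18, 25 and 3 of the 46 TiO2 entries. In the whole tables exons outside UTRs held 29.5% of entries with BPQD and 26.7% with TiO2. Changes were mostly small: 17 of the 25 BPQD entries past p 0.05 and 17 of the 26 TiO2 entries had a log2 fold change of under 0.3 in size. Neither table listed an entry for GPNMB, NPC2, PSAP, GRN, LAMP2, MCOLN1 or, among pump genes, ATP6V0E1, ATP6V1A, ATP6V1F and ATP6V1G1. A gene without an entry may still carry m6A. The tables give no strand, and 13 BPQD and 18 TiO2 entries also overlap another gene.

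Cathepsins held the entries with the smallest p. In the authors' deposited table for BPQD the smallest belonged to CTSH, in a 3′ UTR entry at chromosome 15, 78927233 to 78931507 (GRCh38), with a log2 fold change of 2.80 (the authors' p = 3.16e-23). CTSH has a low level, as given above, and the TiO2 table listed no entry for it. In CTSC the authors' deposited tables gave a 3′ UTR entry at chromosome 11 from 88293622, higher with BPQD (0.22, p = 2.00e-11) and with TiO2 (0.25, p = 7.94e-18). In the authors' deposited tables another CTSC entry had 0.90 with BPQD (from 88321379, the authors' p = 2.82e-09) and 0.28 with TiO2 (from 88321409, the authors' p = 0.0447).

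CTSB and CTSL each carried a 3′ UTR entry that was lower with both materials. In the authors' deposited tables that of CTSB had -0.13 with BPQD (p = 2.00e-11) and -0.12 with TiO2 (p = 3.98e-12). CTSB also had a short exon entry on the higher side in the authors' deposited table for BPQD (chromosome 8, 11850680 to 11850800), with 2.17 (p = 0.00105). The CTSL 3′ UTR entry (chromosome 9, 87731021 to 87731290) had -0.26 with BPQD (p = 3.39e-09) and -0.15 with TiO2 (p = 1.41e-05) in the authors' deposited tables. CTSL input RNA, set beside it, fell slightly with BPQD and was 2.06-fold with TiO2. The smallest p of any member in the authors' deposited table for TiO2 was that of CTSZ, in a 3′ UTR entry at chromosome 20, 58995185 to 58997402, with 0.22 (p = 7.94e-48). The BPQD table listed no entry for CTSZ.

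A long entry listed for LIPA (chromosome 10, 89393324 to 89403941 with BPQD) had 0.26 with BPQD (p = 5.75e-08) and 0.16 with TiO2 (p = 5.13e-05) in the authors' deposited tables. It lies over IFIT1, an interferon-induced gene on the plus strand, so that these tables cannot assign it to LIPA. CD68 had a 5′ UTR entry at chromosome 17, 7579580 to 7580137, with 0.092 with BPQD (p = 0.0155) and 0.14 with TiO2 (p = 9.55e-05) in the authors' deposited tables. It also overlaps AC016876, listed on the plus strand as CD68 is, so it cannot be assigned to CD68 alone. The 3′ UTR entry of TFEB (chromosome 6, 41683978 to 41684994) had -0.185 with BPQD (p = 0.0398) and 0.19 with TiO2 (p = 0.0347) in the authors' deposited tables, and was named after its values had been seen. Both tables use the same untreated libraries, and the difference between the materials in m6A was not tested.

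**Figure D5:**
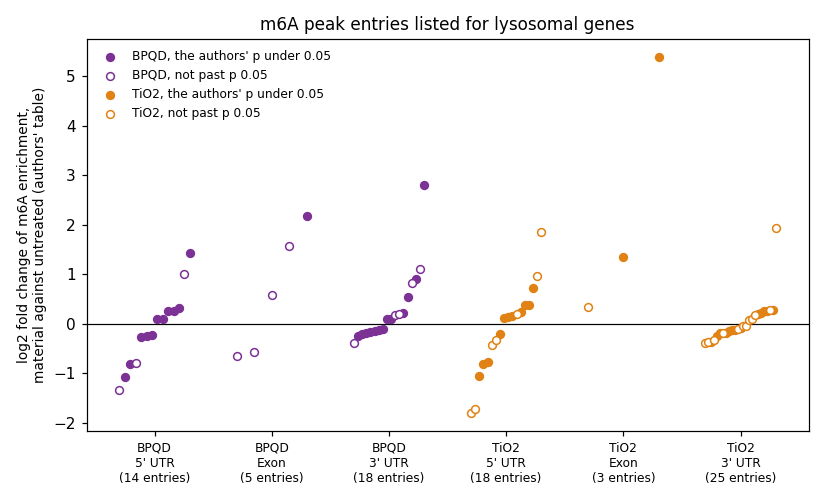
Log2 fold change of m6A enrichment against untreated cells in the authors' tables (vertical axis) for the 37 BPQD and 46 TiO2 peak entries of the members, split by annotated region; each point is an entry and filled points have the authors' p under 0.05. Most points lie near 0, with member entries spanning -1.34 to 2.80 with BPQD and -1.81 to 5.39 with TiO2.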

How the data were processed

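Input RNA was measured in 9 libraries (3 each of BPQD-exposed, TiO2-exposed and untreated cells), and m6A was read from 2 tables of the authors. Per the file headers the authors deposited FPKM for 36576 genes. The submitters' processing notes name HISAT2, StringTie 1.3.0 and the build mm10, without roles. The gene IDs are human, and of 24582 symbols found in RefSeq GRCh38.p14 all lay on the same chromosome and 97.9% had an end within 1000 bases, so coordinates are read as GRCh38. For each m6A peak the authors deposited a log2 fold change, a p-value and a score (a log10 FDR), per the file headers; their caller, and whether they pooled replicates, is not given in the sources used here. Another 12 FPKM columns of these tables were not used.

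The members, lists and rule for named genes were chosen with earlier results of these data known. The 12224 genes averaging 1 FPKM or more were fitted on log2(FPKM + 1) with limma 3.58.1 in R 4.3.3, with group means over all 9 libraries and a trend in the moderated variance, two-sided, with Benjamini-Hochberg adjustment over all genes tested. Values of every library are given for up to 8 called members with the largest change in each comparison and for GPNMB, TFEB, TFE3 and MITF, and also for PSAP, PPT1, SCARB2 and LAMP3, which were picked after their values had been seen; of other lists, up to 2 called genes per material, some of which are not reported here; of peaks, the 6 with the smallest p per table. The fit was tested on simulated data. Read counts are not given, so precision rests on the 3 libraries per group and no counting interval was computed. Of the members, 9 have pseudogenes named after them in RefSeq, among them CTSL, GUSB, ATP6V0C, ATP6V0E1 and ATP6V1G1. Another 12 counts of overlap were found: 12 members overlap another gene with a mean of at least 1 FPKM, CD68, LIPA, NPC1 and NPC2 among them. No source used here says whether counting used strand, so reads could be shared. For CD68 a gene listed as AC016876 lies on the same strand. Python 3.11.15 with pandas 2.3.3 and matplotlib 3.10.9 was used for peaks, promoters and figures. Alternatives were another pseudocount (0.1), no filter, a 5 FPKM minimum, TPM, median centring, quantile normalization, only the 6 libraries compared, a replicate block, leaving out each library, and for peaks p under 0.01 and the authors' FDR under 0.05.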

Additional observations from a re-analysis of the deposited data

How the results depend on the processing

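Of 150 changes (50 members in 3 comparisons), 2511 values under alternatives gave no called change of sign. A call was lost in 88 of them, over 17 changes, and gained in 25, over 15 changes. Values that were not called changed sign in 32.

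Counts of called members stayed within 1.5 times, with one exception: members higher with BPQD than with TiO2 numbered 2, but 1 with no filter, 1 with a minimum mean of 5 FPKM and 1 with the replicate block, where the lost call was CTSH or, at 5 FPKM, CTSH was not tested. Leaving out each library gave 5 to 6 members higher and 17 to 21 lower with BPQD, 21 to 24 higher and 5 to 6 lower with TiO2, and 1 to 2 higher and 25 to 29 lower with BPQD than with TiO2. TPM gave 7 higher and 15 lower with BPQD. Same-numbered libraries did not deviate together (correlations -0.083 to 0.073, none of 9 pairs over 0.1), so the numbers were not taken as pairs; with the replicate block the counts were 5 higher and 18 lower with BPQD, 22 and 5 with TiO2, and 1 and 26 between the exposures.

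Of member peaks, the counts past p 0.05 of 13 higher with BPQD became 8 at p under 0.01 and 8 at the authors' FDR under 0.05. With TiO2 the 14 higher became 7 and 6, and the 12 lower became 7 and 6. The cause was not tested for any of these. Read depth is not given, so a change in the lowest members, CTSH, LAMP3 and CTSK among them, rests on an unknown number of reads. LAMP3, with a mean of 0.0901 FPKM, lies nearest to values of single reads.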

Other observations

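The standard error of a log2 fold change, the same in each comparison, had a median of 0.057 over the 50 tested members and 0.060 over all 12224 genes tested. It was 0.32 in SCARB2 and 0.31 in PPT1, and larger in only 3.84% and 4.02% of all genes. ATP6AP2 (0.23), CTSD (0.19), ATP6V1C1 (0.18), ATP6V0A1 (0.17), CD63 (0.17) and SMPD1 (0.16) followed, and none of these 8 was called against untreated cells. SCARB2, for example, had 4.70, 2.20 and 2.30 FPKM in BPQD libraries and 2.45, 5.32 and 5.00 FPKM in TiO2 libraries, against 1.87, 3.48 and 2.06 FPKM in untreated libraries. The cause of these spreads was not tested.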
